A study of Mus musculus with 58 samples.

Results

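The regions described here are 665 single long 3′ UTR intervals of the mouse genome. The count tables hold 46420 annotated 3′ UTR intervals under 20177 gene names, and 13865 names have exactly 1 interval. A name was kept if its only interval had an annotated Length of at least 3000 bases and at least 100 reads summed over the 3 SLAM-seq libraries of untreated DPY30mAID cells. The members were thus selected on read counts, which are given only as a description. Of 3984 single-interval names past the read minimum, 665 were long (16.7%), 980 were short, with a Length of at most 500 bases (24.6%), and 2339 lay between. Another 927 single intervals of at least 3000 bases had under 100 reads, 414 of them with 0 reads, and are not members.

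The study asked how losing the methyltransferase complexes that place H3K4 methylation alters transcription in mouse embryonic stem cells. All lines derive from E14 cells (129/Ola). In DPY30mAID cells DPY30, a core subunit of these complexes, carries the mAID degron, which auxin triggers through OsTIR1. In RBBP5FKBP cells, a clonal line, RBBP5, another core subunit, carries a degron that dTAG-13 triggers. DPY30mAID Kdm5dKO cells carry the DPY30 degron and also lack the H3K4 demethylases Kdm5a and Kdm5b, and were grown from sorted single cells, with replicates not tied to clones in the labels. SLAM-seq libraries, 36 in all, were made after 0, 2, 8 and 24 h of auxin or dTAG-13 with 3 replicates, and after 0, 2, 4, 8, 24 and 48 h of auxin with 2 replicates in the Kdm5dKO line. Before lysis the cells took up 100 µM 4-thiouridine for 60 min, so RNA made in that hour reads as T-to-C changes. A further 22 Quant-seq libraries, with no label, followed DPY30mAID cells through 1 µM retinoic acid (RA) without LIF, with DMSO or auxin, at 0 h (DMSO only), 8 h and days 1, 2, 4 and 6, with 2 replicates each. The study calls the SLAM-seq replicates biological, while the labels do not say whether replicates were separate cultures, so p-values measure the spread between libraries, whatever its source.

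The libraries held 2013350–2806821 reads in DPY30mAID, 1721185–2852331 in RBBP5FKBP, 5931269–7792404 in Kdm5dKO and 1264241–2543632 in Quant-seq. The 2 DMSO day 6 Quant-seq libraries had the same value in 46420 of 46420 intervals and were counted as 1 sample, and day 6 was not tested. The DPY30mAID libraries at 8 h had T-to-C shares of 13.0%, 9.82% and 5.51% of reads, with 1.24, 1.16 and 1.06 conversions per such read. At 0 h the values were 15.3–16.1% and 1.24–1.25. Replicate 3 at 8 h was the lowest, and the affected counts are also given without it. The ES cell genes Pou5f1, Sox2, Nanog, Zfp42 and Esrrb summed to 2783–3777 CPM (reads scaled to the library total, in counts-per-million units) in the SLAM-seq libraries, against 132–582 for 19 genes of other cell types, of which 2 to 13 were at 0 in a library. The sum of the latter moved with time: it was 369–439 at 0 h, 492–544 at 8 h and 270–306 at 24 h in DPY30mAID, and 135–193, 296–406 and 159–202 in RBBP5FKBP. Its part in the changes described below was not tested.

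The 3′ untranslated region lies between the stop codon and the poly(A) tail of an mRNA. RNA-binding proteins and microRNAs bind there and set how long the mRNA lasts and how well it is translated, and long 3′ UTRs offer room for many such sites. Many genes have several poly(A) sites, so the annotated end of an interval is not always the end used in a cell. Here the Length is the annotated one, and the 3′ end used in these cells was not measured.

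The microRNAs of the miR-290 family are abundant in mouse ES cells, and let-7 is the family that accumulates as cells differentiate and whose maturation LIN28 proteins block. Their mature forms (RefSeq, GRCm38.p6) are shown because matches to their seeds, bases 2 to 8 in capitals, are among the features that set long intervals apart by count.
mmu-miR-294-3p: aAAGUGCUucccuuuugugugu
mmu-let-7a-5p: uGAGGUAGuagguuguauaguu

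Sequence was read on the transcribed strand for the 587 long and 949 short intervals that lie in 1 exon of the GENCODE vM21 transcripts (GRCm38), of 3688 single intervals in all. CTACCTC, the match to the let-7a seed, was in 25.6% of long, 2.11% of short and 10.0% of all intervals. AGCACTT, the match to the miR-294-3p seed, was in 44.0%, 2.42% and 17.0%. GCACTTT, the match to the miR-17 seed, which shares letters with AGCACTT, was in 38.3%, 2.53% and 15.1%. Per 1000 bases the lists were near each other: the let-7 match occurred 0.0760 times in long and 0.0822 times in short intervals, and the miR-294-3p match 0.133 and 0.103 times. A match is a run of letters and was not tested as a site. The members with 4 or more let-7 matches were Nr6a1, with 8, and Hic2, Hmga2, Igf2bp1, Lin28b and Trim71, with 4 each. Hmga2, Igf2bp1, Lin28b and Trim71 are textbook let-7 targets with results below, so 1 or 2 of their matches are shown, with the seed match in capitals.
Hmga2, chr10:120364216-120364240, minus strand: attcaatttCTACCTCagcatcagt
Hmga2, chr10:120362979-120363003, minus strand: tcctcaataCTACCTCtgaatgcta
Igf2bp1, chr11:95958755-95958779, minus strand: atggatgaaCTACCTCagtcctcac
Lin28b, chr10:45378640-45378664, minus strand: tgttagtaaCTACCTCtgagtttga
Trim71, chr9:114509039-114509063, minus strand: atggattttCTACCTCaattttggc
Trim71, chr9:114509013-114509037, minus strand: aaaagttgtCTACCTCacgtcggca

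AU-rich elements, runs built on ATTTA that decay factors bind, showed the same pattern. ATTTA was in 98.3% of long, 31.2% of short and 70.2% of all intervals, at 1.96 and 1.76 matches per 1000 bases in long and short intervals. TTATTTATT, a longer form that holds ATTTA, was in 19.9%, 1.26% and 7.81%, at 0.0590 and 0.0493 per 1000 bases. TGTANATA, the letters that Pumilio proteins bind, was in 57.6%, 7.90% and 28.3%, and here the short intervals had the higher density, 0.357 against 0.221 per 1000 bases. Examples of TTATTTATT, in capitals, are shown for 4 members with results below.
Rybp, chr6:100231788-100231814, minus strand: agggaacttTTATTTATTgtgttcaca
Gsk3b, chr16:38241739-38241765, plus strand: tttttaaatTTATTTATTgatgcatgt
Nrip1, chr16:76289816-76289842, minus strand: aatctgtgaTTATTTATTtgctctaat
Sox11, chr12:27335427-27335453, minus strand: aattaagcaTTATTTATTgaaaactat

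The last 50 bases of an interval held AATAAA or ATTAAA, the letters of the poly(A) signal, in 86.2% of long, 80.5% of short and 82.1% of all intervals. Over the whole interval the median number of these hexamers was 6 in long and 1 in short intervals. The last 250 bases were 63.2% A or T in long and 56.4% in short intervals (medians). The signals at the annotated ends of Igf2bp1 and Eaf1, a member with one of the highest shares of new RNA, are shown in capitals.
Igf2bp1, chr11:95957172-95957195, minus strand: cagcctcaaAATAAAaggaaactt
Eaf1, chr14:31509832-31509855, plus strand: ccattctacAATAAAgctctaaaa

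The members lie on 20 chromosomes, 349 on the plus and 316 on the minus strand. Their median Length was 4029 bases (3000 to 124656) against 258 for the short intervals, and their median read count over the 3 untreated DPY30mAID libraries was 398 (100 to 22847). Their genes were longer too, with a median span of 41140 bases against 9828 for short intervals and 20345 for those between. An exon of another gene lay in the interval on the same strand in 27 long and 17 short intervals, where reads may come from either gene. On the opposite strand such an exon lay in 100 long (15.0%) and 29 short (2.96%) intervals. How far reads of that strand enter the counts was not checked. Over 10% of reads were multimapped in 88 long and 168 short intervals.

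Long intervals were spread unevenly over gene groups. Against 16.7% of all single-interval names past the read minimum, long intervals made up 12 of 32 for proteins that read 3′ UTRs or degrade mRNA (37.5%). They made up 13 of 28 signalling receptors and kinases (46.4%), 4 of 9 neural genes (44.4%) and 10 of 51 chromatin regulators (19.6%). The mRNA group held Ago2, the slicing Argonaute, Dicer1, which cuts microRNA precursors, Cnot6, a deadenylase, and the RNA-binding proteins Elavl1, Igf2bp1, Lin28b, Rc3h1 and Cpeb4. The signalling group held Gsk3b, Igf1r, Lrp6, Fzd5 and the BMP receptors Bmpr1a and Bmpr2. Housekeeping groups were at the other end, with 2 of 52 cytosolic ribosomal protein genes (3.85%, Rps15a and Rps20, against 40 short), 1 of 46 respiratory chain genes (2.17%, Atp5g1, against 35 short) and 0 of 19 proteasome genes (16 short). These are counts of names and carry no test.

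At 0 h the share of reads with a T-to-C change, here the T>C share, was higher in long than in short intervals in each of the 3 lines. The median T>C share in DPY30mAID was 24.4% for long intervals (quartiles 18.1% to 30.8%), 21.0% for those between and 11.6% for short ones (quartiles 6.56% to 19.5%), a ratio of 2.10. In RBBP5FKBP, which the rule did not use, the medians were 14.5%, 11.5% and 6.38%, and in Kdm5dKO 8.07%, 6.09% and 3.37%, with ratios of 2.27 and 2.39. The lists overlapped: 609 of 665 long intervals (91.6%) in DPY30mAID, 592 (89.0%) in RBBP5FKBP and 601 (90.4%) in Kdm5dKO were above the short median, while 163 of 980 short intervals (16.6%) were above the long median in DPY30mAID. No test was run over intervals, which are not replicates.

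**Figure D1:**
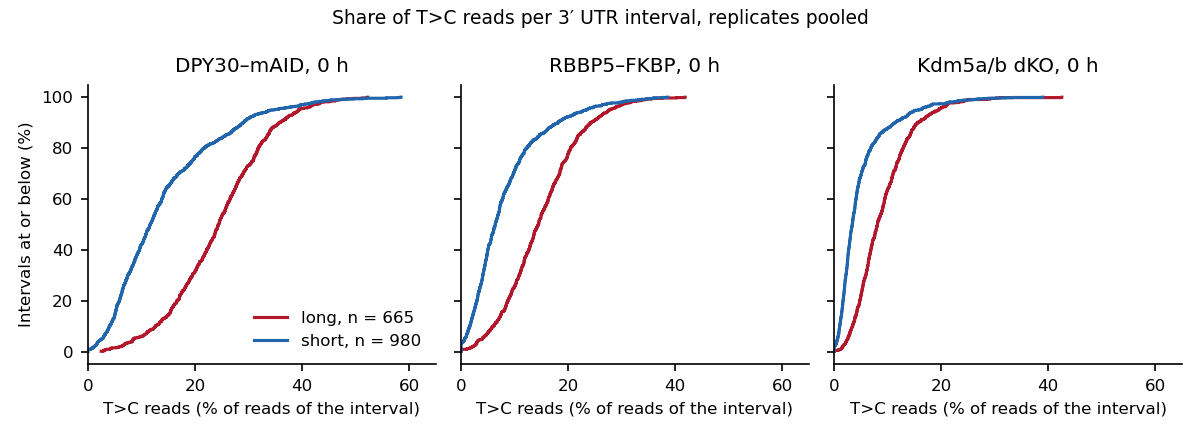
Cumulative share of the 665 long and 980 short intervals (y axis, percent) at or below a T>C share at 0 h (x axis, percent of the reads of the interval, replicates pooled), 1 panel per line. The curve of the long intervals lies to the right of that of the short ones over most of the range in each panel, with medians of 24.4%, 14.5% and 8.07% against 11.6%, 6.38% and 3.37%.

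A read with more T positions has more chances to show a change. In DPY30mAID a read covered a median of 20.6 T positions in long and 17.6 in short intervals. The intervals themselves were 30.5% and 29.2% T (medians). In intervals of up to 250 bases a read covered a median of 15.7 T positions, against 19.6 in those of 251–500 bases. Per T position, the median was 1.52 conversions per 100 T in long and 0.773 in short intervals in DPY30mAID (ratio 1.96), 0.861 and 0.406 in RBBP5FKBP (2.12), and 0.755 and 0.338 in Kdm5dKO (2.23). In ranges chosen after seeing the data, intervals with 17 to 20 T per read in DPY30mAID had median T>C shares of 23.6% and 12.4%, with 14 to 17 they were 17.8% and 10.3%, and with 20 to 23 they were 26.1% and 14.1%. The part of T content in the difference of shares was not tested. In the unlabelled Quant-seq libraries the pooled T>C share was 0.390% for long and 0.279% for short intervals. A read there covered on average 11.2–11.9 T positions, against 18.8–19.0 in DPY30mAID at 0 h, so this background holds for fewer T positions per read. Leaving out the 47 long and 43 short intervals over 2% in unlabelled RNA gave ratios of 2.10, 2.25 and 2.46.

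The share climbed with annotated Length up to about the limit of the rule and did not climb within the members. The DPY30mAID medians were 9.16% up to 250 bases (478 intervals), 13.8% for 251–500 (502), 18.7% for 501–1000 (785), 20.9% for 1001–2000 (1010) and 23.7% for 2001–2999 (544). Past the limit they were 24.2% for 3000–3999 bases (322), 24.8% for 4000–5999 (232) and 23.8% from 6000 (111). RBBP5FKBP had the same order up to 5999 bases, from 5.12% to 14.9%, then 13.0%. Across the 665 members the share had a Spearman correlation of 0.02 with Length and −0.01 with gene span, against 0.32 with Length across the 980 short intervals. These points share 3 libraries, depth and base composition, and the values are a description. The order of the members was similar between lines, with a Spearman correlation of 0.70 between DPY30mAID and RBBP5FKBP and 0.63 between DPY30mAID and Kdm5dKO. The other lists had slightly higher values, 0.74 and 0.70 for short intervals and 0.77 and 0.73 for those between.

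**Figure D2:**
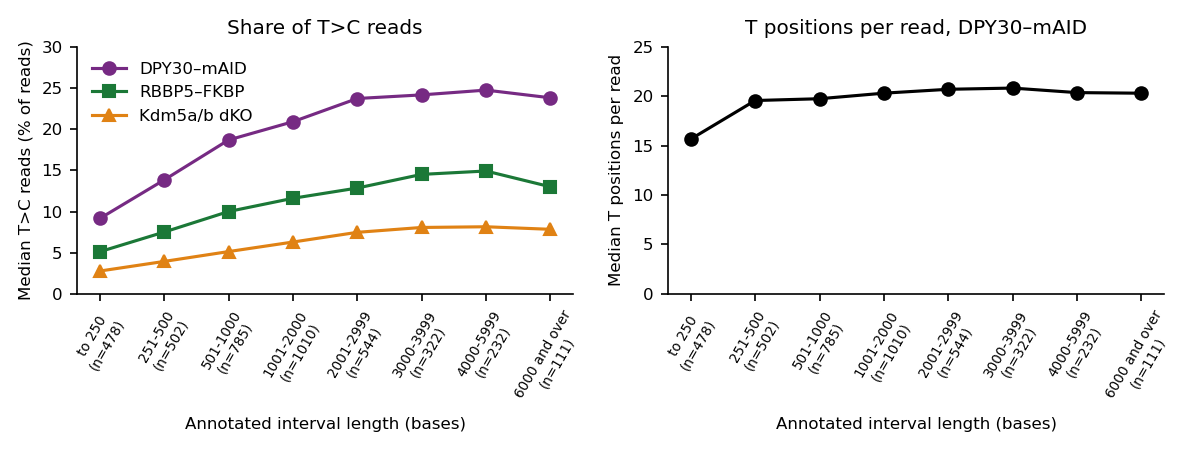
Median T>C share at 0 h (left, percent of reads, 1 line per cell line) and median number of T positions per read in DPY30mAID (right) against annotated interval Length in bins. In DPY30mAID the median goes from 9.16% up to 250 bases to 24.2% at 3000–3999 bases and lies between 23.8% and 24.8% from there on.

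The order of the lists held at each read depth. Among intervals with 100 to 299 reads the median share in DPY30mAID was 24.6% in long and 12.5% in short intervals, with 300 to 999 reads 24.7% and 12.3%, and with 1000 or more 22.6% and 9.76%. Members with a TTATTTATT match had a median share of 26.7% against 24.1% for those without, and members with a let-7 match 23.7% against 24.7%.

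Among members with at least 300 reads in DPY30mAID and in RBBP5FKBP at 0 h, the highest mean shares over these lines were those of Eaf1, a partner of the ELL elongation factors, Btg1, an antiproliferative protein that binds the CCR4-NOT deadenylase, Gse1, Rybp, a Polycomb subunit, and Rnf146, a ubiquitin ligase. Eaf1 (chr14:31506618-31509858) had a T>C share of 51.1% in DPY30mAID, 35.8% in RBBP5FKBP and 24.9% in Kdm5dKO. Btg1 had 52.1%, Rybp 45.3%, Gse1 41.1% and Rnf146 39.7% in DPY30mAID, with 95.3% of reads multimapped for Btg1 and 96.6% for Rybp. By the same measure the lowest were Adam23 (3.01% in DPY30mAID), the ribosomal protein genes Rps20 (3.09%) and Rps15a (4.45%), the hydrolase gene Nudt5 (4.28%, 79.7% multimapped) and Dap3, a mitochondrial ribosome gene (5.38%). The members thus covered much of the range of shares, and the short list had high members too: Arf6, a small GTPase, had 45.2% and 3110001I22Rik 49.7% in DPY30mAID.

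Among the members with most reads were Ncl, nucleolin, which takes part in ribosome biogenesis (22847 reads, 13.9% T>C), Rps20 (21518), Igf2bp1 (13716, 16.5%) and the splicing factor gene Hnrnpa3 (12729, 9.84%, 94.8% multimapped). The 3 short intervals with most reads, Eef1a1, Tuba1b and Rpl41, had 6.64%, 14.0% and 4.24%. The longest members were D10Wsu102e (124656 bases, 25.2%), D1Ertd622e (39397 bases, 32.4%), the kinase gene Aak1 (15925 bases, 21.8%), Tmem245 (13324 bases, 15.4%) and Lpp (13255 bases, 19.8%). At the limits of the rule, Pcolce2 and Syt11 lay just inside at 3000 bases with shares of 11.1% and 41.9%, and Atxn7l3b (2999) and Rbbp4 (2992) just outside. St8sia6 and Zbtb39 were inside with 100 reads, Zbtb39 with 9.18% T>C in unlabelled RNA, and Gpalpp1 and Slc39a14 outside with 99.

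After DPY30 or RBBP5 loss the pooled T>C shares of the long and the short intervals were both lower at 8 h, and at 24 h in RBBP5FKBP. In DPY30mAID the long list had 21.4%, 19.6% and 21.5% in the 3 libraries at 0 h, 17.7%, 13.4% and 6.99% at 8 h, and 22.1%, 22.5% and 20.8% at 24 h. The short list had 10.7%, 10.2% and 10.2%, then 8.10%, 6.09% and 3.71%, then 9.87%, 9.75% and 9.25%. All 8 h libraries were below all 0 h libraries in both lists. At 24 h the long list overlapped its 0 h values, with 2 libraries above all of them, while the short list was below its own. In RBBP5FKBP the long list went from 14.2%, 13.1% and 12.1% at 0 h to 6.53%, 6.98% and 7.44% at 24 h, and in Kdm5dKO from 6.49% and 7.33% at 0 h to 2.65% and 3.21% at 48 h, in both without overlap. The ratio of the medians of the lists lay between 2.02 and 2.59 in all 36 SLAM-seq libraries.

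**Figure D3:**
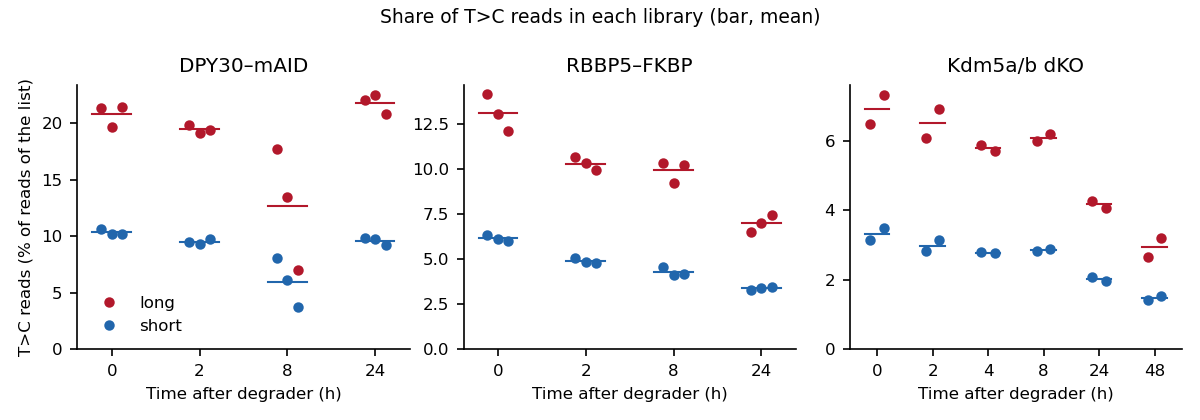
Pooled T>C share (percent of the reads of a list) of long and short intervals in every SLAM-seq library against hours of auxin or dTAG-13, 1 panel per line. Both lists are lower at 8 h in DPY30mAID, at 24 h the long list overlaps its 0 h values there while the short list is below its own, and the long list stays above the short one in every library.

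Single genes were tested over all names with edgeR's quasi-likelihood test and Benjamini-Hochberg adjustment, on T>C reads scaled to the total reads of a library, and a name was called where the log2 fold change passed 1 and the adjusted p was below 0.05. In DPY30mAID, 634 of 665 members passed the read filter. At 2 h 0 members were called by edgeR or DESeq2, as were 0% of 6317 names, with 3 members lower and 4 higher at an unadjusted p below 0.05 and the same fold limit (1.09% and 0.966% of all names). At 8 h 98 members were lower and 0 higher, against 14.5% lower and 0.158% higher of all names, and the median log2 change was −0.74 for long, −0.77 for short and −0.71 for all. At 24 h 16 were lower and 4 higher, against 2.75% and 0.807%, with medians of −0.23, −0.05 and −0.14. The members' shares were near those of all names at each time. The rule used the reads of the 0 h libraries that these comparisons share.

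These counts depended on the scaling and on single libraries. When T>C reads were scaled by their own factors, which takes out the fall common to all names (the median of all names then was −0.01 at 8 h and −0.02 at 24 h), 7 members were lower and 11 higher at 8 h (1.38% and 1.03% of all names), and 31 lower and 19 higher at 24 h (4.95% and 4.13%). Without 8 h replicate 3, 47 members were lower at 8 h (7.38% of the tested members in place of 15.5%, against 7.35% of all names without it). The called share was 34.1% without 8 h replicate 1, 8.83% without 8 h replicate 2, and 8.01% and 9.52% without 0 h replicates 1 and 3. At 24 h (3.15% called) it was 0.786%, 0.787% and 0.316% without 24 h replicates 1, 2 and 3, 1.10%, 1.74% and 1.27% without 0 h replicates 1, 2 and 3, and 5.06% and 8.95% without 8 h replicates 1 and 3. Except for the 8 h count without 8 h replicate 3, these values have no share of all names beside them. They describe only how the members' count moved.

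In RBBP5FKBP, 500 members passed the filter and 165 did not. At 2 h 0 members were called by edgeR, against 0.147% lower and 0% higher of all names, with 32 lower and 1 higher at an unadjusted p below 0.05 and the same fold limit (5.46% and 0.777% of all names) and 6 lower by DESeq2 (1.13%). At 8 h 24 members were lower and 0 higher (5.61% and 0.126% of all names), with median log2 changes of −0.47 for long, −0.52 for short and −0.50 for all. At 24 h 131 were lower and 0 higher (22.9% and 0.189%), with medians of −0.97, −0.84 and −0.91. Scaled by T>C factors, with the median of all names at −0.02 and −0.01, 0 members were lower and 1 higher at 8 h (0.693% and 0.21% of all names), and 1 lower and 0 higher at 24 h (0.924% and 0.546%). At 8 h (4.80% called) the share was 2.41% and 2.97% without 0 h replicates 2 and 3, and 2.36%, 1.78% and 2.18% without 8 h replicates 1, 2 and 3. No share of all names is given for these omissions, so they describe the members' count alone.

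Of the 498 members tested in both lines, 13 were lower at 8 h in both lines: Ncl, Igf2bp1, Lrrc58, Purb, Pank3, Hmga2, Eaf1, Mga, Hus1, Peg10, Rbm12, Bend3 and Utp14b. They were 2.61% of these members, against 3.00% of the 4674 names tested in both lines. In 12 of the 13 no 8 h library reached any 0 h library in either line (2.41%, against 2.65% of all names). Without DPY30mAID 8 h replicate 3, an alternative chosen after seeing the data, the counts were 9 (1.81%, against 1.86% of all names) and 8 (1.61%, against 1.71%), and Ncl, Igf2bp1, Purb and Pank3 were no longer among them. Of the 12, the 5 with most new RNA are described below. Their lack of overlap at 8 h was a condition of this choice and is not a result. Utp14b holds an exon of Acsl3 on the same strand, so its reads may come from either gene. The calls of Ncl, Igf2bp1, Lrrc58, Purb and Pank3 at 8 h were lost when T>C reads were scaled by their own factors, except that of Lrrc58 in DPY30mAID.

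Ncl (chr1:86344719-86350619, minus strand) had 432, 385 and 443 T>C CPM (T>C reads scaled to the total reads of the library) in the DPY30mAID 0 h libraries, 272, 181 and 76.1 at 8 h, and 220, 187 and 171 at 24 h. It fell by 1.35 ± 0.29 (log2, SE, adjusted p = 0.00142, edgeR) at 8 h and by 1.14 ± 0.29 (adjusted p = 0.0195, edgeR) at 24 h. All 6 libraries of 8 and 24 h lay below the 3 at 0 h, which the choice of this member required at 8 h. Leaving out 8 h replicate 3 lost the 8 h call. In RBBP5FKBP it had 143, 175 and 210 at 0 h, 106, 68.0 and 96.3 at 8 h, and 63.8, 72.7 and 96.9 at 24 h, a log2 change of −1.02 ± 0.20 (adjusted p = 0.000468, edgeR) at 8 h, lost without 0 h replicate 3 or 8 h replicate 2. At 24 h it was −1.21 ± 0.21 (adjusted p = 7.54e-06, edgeR), with every 8 and 24 h library below every untreated one.

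Igf2bp1, a stabiliser of bound mRNAs whose let-7 and poly(A) letters are shown above (chr11:95957163-95963499), had 289, 307 and 292 T>C CPM at 0 h in DPY30mAID and 175, 149 and 87.5 at 8 h, a log2 change of −1.21 ± 0.27 (adjusted p = 0.00201, edgeR). The 8 h libraries were below those of 0 h, as the choice of this member required. At 24 h it had 203, 260 and 200 and was not called (−0.43, adjusted p = 0.38, edgeR). In the RBBP5FKBP line it had 224, 231 and 237 at 0 h, 125, 86.2 and 118 at 8 h, and 74.4, 93.2 and 94.0 at 24 h. It fell there by 1.12 ± 0.19 (adjusted p = 2.31e-05, edgeR) at 8 h and by 1.43 ± 0.19 (adjusted p = 2.15e-08, edgeR) at 24 h. Leaving out 8 h replicate 3 in DPY30mAID or 8 h replicate 2 in RBBP5FKBP lost the 8 h call.

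Lrrc58 (chr16:37881463-37888858) had 123, 130 and 141 T>C CPM at 0 h in DPY30mAID, 52.4, 53.2 and 17.8 at 8 h, and 136, 137 and 142 at 24 h. All libraries of 8 h were far below and those of 24 h level with 0 h: the log2 change was −1.77 ± 0.32 (adjusted p = 0.000163, edgeR) at 8 h and 0.06 at 24 h. In RBBP5FKBP it went from 43.9, 63.8 and 112 to 25.9, 37.0 and 39.5 at 8 h (−1.15 ± 0.29, adjusted p = 0.00651, edgeR), a call lost without 0 h replicate 3 or 8 h replicate 1.

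Purb, which binds single-stranded nucleic acids, had 71.3, 50.9 and 89.8 T>C CPM at 0 h and 50.7, 32.9 and 21.9 at 8 h in DPY30mAID (−1.10 ± 0.33, adjusted p = 0.0162, edgeR). RBBP5FKBP cells had 49.9, 29.8 and 46.8, then 19.0, 22.7 and 19.3 at 8 h (−1.10 ± 0.33, adjusted p = 0.0303, edgeR) and 8.42, 10.2 and 11.1 at 24 h. The 0 and 8 h groups did not overlap, which the choice of this member required, by a small margin in DPY30mAID. The 8 h call of Purb was lost in DPY30mAID without 0 h replicate 1 or 3 or 8 h replicate 2 or 3, and in RBBP5FKBP without 0 h replicate 1 or 3 or any 8 h library.

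Pank3, a pantothenate kinase of coenzyme A synthesis, had 44.9, 45.6 and 42.4 T>C CPM and then 28.5, 21.3 and 13.2 at 8 h in DPY30mAID (−1.17 ± 0.35, adjusted p = 0.0161, edgeR). Its values in RBBP5FKBP were 36.5, 60.7 and 29.4, then 24.8, 16.0 and 22.6 at 8 h (−1.05 ± 0.33, adjusted p = 0.0382, edgeR) and 10.2, 12.6 and 9.64 at 24 h. The 8 h libraries lay below the untreated ones, as the choice of this member required. In RBBP5FKBP those of 24 h lay below them as well. The 8 h call of Pank3 was lost in DPY30mAID without 0 h replicate 1 or 2 or 8 h replicate 2 or 3, and in RBBP5FKBP without 2 h replicate 1, 0 h replicate 2 or any 8 h library, and with the replicate block.

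**Figure D4:**
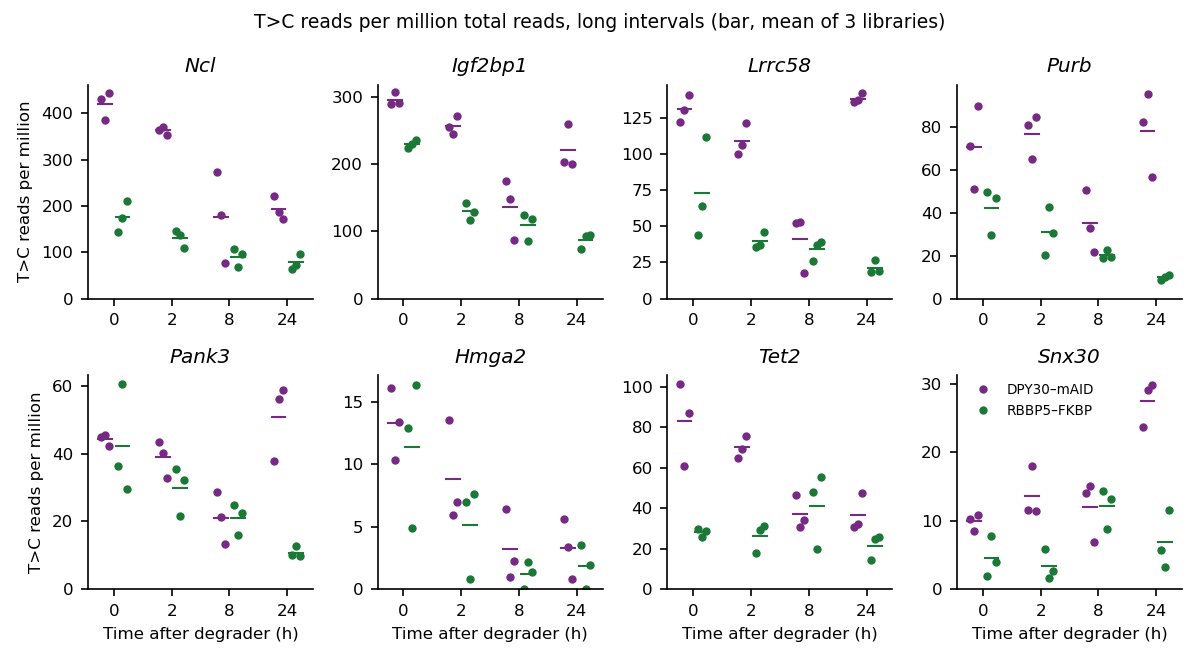
T>C CPM in each SLAM-seq library of DPY30mAID and RBBP5FKBP against hours of degradation, for named long intervals. Ncl and Igf2bp1 are lower at 8 h in both lines, Lrrc58 is back at its 0 h level at 24 h in DPY30mAID, and Snx30 is higher at 24 h in DPY30mAID.

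Among chromatin regulators, 3 of the 10 long members were lower at 8 h of DPY30 loss (14.5% of all names were), also without 8 h replicate 3: Hmga2, Nsd1 and Tet2. With factors from T>C reads 0 of the 10 were lower at 8 h (1.38% of all names) and these 3 at 24 h (4.95%). Tet2, which oxidises 5-methylcytosine, had 102, 60.9 and 86.9 T>C CPM at 0 h, 46.4, 30.5 and 34.2 at 8 h (−1.26 ± 0.32, adjusted p = 0.00515, edgeR) and 30.5, 32.0 and 47.6 at 24 h (−1.18 ± 0.32, adjusted p = 0.0234, edgeR). All 8 and 24 h libraries of Tet2 lay below the untreated ones, and its log2 change in RBBP5FKBP was 0.50 at 8 h and −0.42 at 24 h, neither called. Nsd1, an H3K36 methyltransferase, had 61.0, 52.4 and 35.5 at 0 h, 25.6, 25.2 and 11.8 at 8 h and 21.3, 13.1 and 11.7 at 24 h (−1.70 ± 0.38, adjusted p = 0.00714, edgeR), without overlap. The 8 h calls of Tet2 and Nsd1 were lost without 0 h replicate 1. At 24 h that of Tet2 was lost without 0 h replicate 1 or 3 or any 24 h library, and that of Nsd1 without 0 h replicate 1 or 24 h replicate 2 or 3. In RBBP5FKBP 1 of 8 tested members of this group was lower at 8 h and 3 of 8 at 24 h (Kdm5b, Hmga2 and Cbx6), against 5.61% and 22.9% of all names.

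Hmga2, an architectural chromatin protein, was low in ES cells: it had 16.1, 10.3 and 13.4 T>C CPM at 0 h and 6.39, 0.968 and 2.28 at 8 h in DPY30mAID (−2.11 ± 0.65, adjusted p = 0.0212, edgeR). The RBBP5FKBP libraries gave 12.9, 4.91 and 16.3 and then 0, 2.21 and 1.41 (−3.20 ± 0.90, adjusted p = 0.0188, edgeR). The groups did not overlap, but few reads stand behind these values. The 8 h call of Hmga2 was lost in DPY30mAID without 0 h replicate 1 or 3 or 8 h replicate 2. In RBBP5FKBP it was lost by DESeq2 and without 0 h replicate 1 or 3 or 8 h replicate 1 or 3. In both lines it was also lost with factors from T>C reads.

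Of the proteins that read or degrade mRNA, Igf2bp1 alone of 12 was lower at 8 h of DPY30 loss (14.5% of all names were), a call lost without 8 h replicate 3, and Ago2 and Lin28b were lower at 24 h (2.75%). Ago2 had 149, 116 and 133 T>C CPM at 0 h and 50.9, 27.2 and 31.1 at 24 h (−1.88 ± 0.32, adjusted p = 0.000326, edgeR), every 24 h library far below every untreated one. Lin28b, which blocks let-7 maturation, had 23, 8 and 8 T>C reads at 0 h and 0, 0 and 1 at 24 h, and leaving out any 24 h library lost its call. In RBBP5FKBP 5 of 10 tested members were lower at 24 h, against 22.9% of all names and 26.2% of the long ones: Cnot6, Dicer1, Ago2, Igf2bp1 and Trim71. With factors from T>C reads 0 of the 10 were lower there, against 0.924% of all names, and 3 of 12, Ago2, Dicer1 and Lin28b, were lower at 24 h of DPY30 loss (4.95%). Trim71, a let-7 target and RNA-binding ubiquitin ligase, had 117, 133 and 137 T>C CPM in RBBP5FKBP at 0 h and 55.8, 28.9 and 53.0 at 24 h (−1.53 ± 0.23, adjusted p = 4.07e-07, edgeR). Of the 13 tested members of the signalling group, 1 was lower at 8 h of RBBP5 loss (Lrp6, a Wnt co-receptor) and 2 at 24 h, Gsk3b among them, against 5.61% and 22.9% of all names.

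The members called higher after loss in DPY30mAID and RBBP5FKBP were 4 of 634, at 24 h in DPY30mAID, against 0.807% of all names: Ctdspl2, Bach1, Snx30 and Dennd5b. By DESeq2 they were 6 (1.65% of all names), and with factors from T>C reads 19 (4.13%). Ctdspl2 had 4.88, 7.13 and 7.24 T>C CPM at 0 h and 23.3, 20.4 and 21.0 at 24 h (1.72 ± 0.51, adjusted p = 0.0436, edgeR). Bach1, a haem-regulated repressor, had 14.6, 3.56 and 20.6, then 26.1, 52.4 and 31.9 (1.50 ± 0.45, adjusted p = 0.0471, edgeR). Snx30, a sorting nexin, had 10.3, 8.55 and 10.9, then 23.7, 29.1 and 29.9 (1.46 ± 0.44, adjusted p = 0.0467, edgeR). No untreated library reached a 24 h one in these 3 genes, yet each call was near the threshold and was lost without 0 h replicate 1 or 2, 8 h replicate 2, or any 2 h or 24 h library, and for Ctdspl2 and Snx30 also without 0 h replicate 3. Dennd5b, with 98.7% of its reads multimapped, had a log2 change of 1.22 ± 0.30 (adjusted p = 0.0158, edgeR) there and of −1.48 ± 0.19 (adjusted p = 1.98e-08, edgeR) at 24 h in RBBP5FKBP.

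In Kdm5dKO cells the targeted gene Kdm5b is itself a member. DPY30 and RBBP5 are removed as proteins, which these reads do not check. The CPM of Kdm5b at 0 h were 906, 946 and 910 in DPY30mAID, 844, 678 and 772 in RBBP5FKBP and 151 and 109 in Kdm5dKO, and its T>C share there was 1.85% and 3.42% against 28.4%, 25.2% and 21.7% in DPY30mAID. The T>C share of whole libraries at 0 h was lower in Kdm5dKO too, 4.69% and 5.27% against 15.3–16.1%. A read covered on average 11.3 T positions there against 18.8–19.0 in DPY30mAID, so these shares do not compare directly between the lines. By its CPM, the 3′ end of Kdm5b was still read in Kdm5dKO, at a lower level than in both other lines. Of the members 585 passed the filter. After DPY30 loss 159 were lower and 0 higher at 24 h, against 27.5% and 0.117% of all names, and 385 lower and 0 higher at 48 h, against 64.4% and 0.117%. The median log2 changes at 24 h were −0.74 for long, −0.82 for short and −0.80 for all, and at 48 h −1.28, −1.32 and −1.29. The members followed all names closely here too. Scaled by T>C factors, with the median of all names at −0.01, 10 members were lower and 11 higher at 24 h (1.63% and 1.11% of all names), and 23 lower and 17 higher at 48 h (1.93% and 1.81%). The called share of members at 24 h (27.2%) was 17.3% without 24 h replicate 2 and 16.3% without 0 h replicate 2, with no share of all names given for these omissions. Hmga2 had 7.50 and 5.26 T>C CPM at 0 h and 0.915 and 0.446 at 48 h (−3.28 ± 0.46, adjusted p = 3.46e-09, edgeR), apart without overlap.

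Total reads were tested in the same libraries. In DPY30mAID, where the rule used the 0 h libraries, 12 of 665 were lower and 9 higher at 8 h (1.9% and 2.26% of all names), and 59 lower and 14 higher at 24 h (7.06% and 6.16%), and nothing is read from these counts. The medians at 24 h were −0.22 for long, 0.08 for short and 0.01 for all. In RBBP5FKBP 16 of 664 were lower and 12 higher at 8 h (2.1% and 2.22%), and 13 lower and 12 higher at 24 h (1.86% and 1.63%), close to the share of all names. Without normalisation factors, which moved the median of all names by over 0.1 at 8 h in DPY30mAID, 9 members were lower and 21 higher there (1.40% and 3.19% of all names), and 10 lower and 16 higher in RBBP5FKBP at 8 h (1.74% and 2.59%). The called share of members in RBBP5FKBP at 8 h was 2.26% without 8 h replicate 1 and 2.56% without 0 h replicate 3, with no share of all names given for these omissions.

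In RBBP5FKBP, whose libraries the rule did not use, Snx30, chosen here after its values were seen, had 29.1, 33.7 and 40.3 CPM in total reads at 0 h, then 96.8, 118 and 88.8 at 8 h and 81.5, 85.3 and 91.6 at 24 h. It rose by 1.51 ± 0.22 (log2, adjusted p = 8.87e-05, edgeR) and 1.29 ± 0.22 (adjusted p = 0.00049, edgeR), and every 8 and 24 h library was above every untreated one. In DPY30mAID it had 42.5, 28.1 and 39.1 CPM at 0 h, 75.8, 76.0 and 100.2 at 8 h, and 105, 93.1 and 112 at 24 h, which are given as a description since the rule used the first 3.

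Over the RA course all 665 members and 970 of the short intervals passed the Quant-seq filter, and 11415 names were tested. The background holds names with few reads before RA, which the rule left out of the members. At 8 h 27 members were lower and 18 higher than at 0 h (3.03% and 3.47% of all names), at day 1 119 and 43 (12.3% and 17.1%), at day 2 68 and 44 (9.97% and 16.3%), and at day 4 49 and 78 (11.1% and 19.6%). The short intervals went the other way at day 4, with 174 lower (17.9%) and 36 higher (3.71%), against 7.37% and 11.7% of the long ones, both under the shares of all names. The median log2 changes at day 4 were −0.01 for long, −0.37 for short and 0.04 for all. The time points share the 0 h libraries. Without normalisation factors, which moved the median of all names at day 4 to 0.21, 39 members were lower and 102 higher at day 4 (8.10% and 22.9% of all names), and 57 and 52 at day 2 (8.55% and 17.7%). The ES cell genes summed to 3885–4112 CPM at 0 h and 724 at day 6 in DMSO, and the genes of other cell types to 287–309 and 3684. In bulk RNA, fewer cells of a type and less RNA per cell cannot be told apart.

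The largest rises at day 4 were those of Tent5a, a poly(A) polymerase, Myo6, an actin motor, Prtg, Slc30a4, a zinc transporter, and Hmga2. Tent5a had 1.34 and 2.36 CPM at 0 h, 11.0 and 8.81 at 8 h, 42.3 and 34.7 at day 1, and 107 and 120 at day 4 (5.69 ± 0.30, adjusted p = 9.29e-15, edgeR). Prtg had 6.27 and 6.68 at 0 h and 199.6 and 186 at day 4 (4.70 ± 0.18, adjusted p = 1.02e-17, edgeR), and was called higher from 8 h on, as was Tent5a, while Myo6 and Slc30a4 were called from day 1 and Hmga2 and Sox11 from day 2. Hmga2 had 39.0 and 36.2 at 0 h, 26.1 and 21.8 at 8 h, 50.5 and 71.6 at day 1, 161 and 201 at day 2, 598 and 657 at day 4, and 266 in the day 6 sample. The largest level of Hmga2 was thus at day 4, with a log2 change of 3.88 ± 0.17 (adjusted p = 2.47e-16, edgeR), where the 2 libraries stood far above all earlier ones. Sox11, a neural transcription factor, had 30.9 and 36.2 at 0 h and 381 and 388 at day 4 (3.33 ± 0.15, adjusted p = 3.98e-16, edgeR).

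Nrip1, a nuclear receptor corepressor and the only long member among the RA target genes, had 10.3 and 8.26 CPM at 0 h, 47.5 and 44.5 at 8 h, and 123 and 130 at day 4. It rose by 2.37 ± 0.21 (log2, adjusted p = 3.71e-09, edgeR) at 8 h. Of the 13 signalling members 4 rose at day 4, against 19.6% of all names and 11.7% of the long ones: Acvr2a, Gsk3b, Bmpr2 and Bmpr1a. Gsk3b, a kinase of the Wnt pathway, went from 86.9 and 62.1 to 207 and 203 (1.29 ± 0.13), and Acvr2a, an activin receptor, from 1.79 and 4.72 to 19.8 and 25.2 (2.55 ± 0.36), both without overlap. Of the mRNA group Btg1 rose at day 4, from 62.7 and 81.4 to 201 and 192, and 4 of its 12 members were lower and 1 higher at day 1 (12.3% and 17.1% of all names).

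The largest falls at day 4 were those of Ntn1, the guidance cue netrin-1, Jade2, Adam23, Spry4, a feedback inhibitor of FGF signalling, and Map1a, a microtubule-associated protein. Ntn1 had 38 and 38 reads at 0 h and 0 and 1 at day 4. Adam23 had 80.6 and 75.1 CPM at 0 h and 5.41 and 8.86 at day 4 (−3.62 ± 0.25, adjusted p = 3.01e-12, edgeR), and Map1a 73.0 and 82.2, then 14.0 and 11.7 (−2.77 ± 0.25, adjusted p = 4.75e-10, edgeR). Both members that are on the pluripotency list, Tfcp2l1, a naive-state transcription factor, and Tet2, were called lower on days 1, 2 and 4, against 12.3%, 9.97% and 11.1% of all names. Tfcp2l1 had 410 and 383 at 0 h, 218 and 240 at 8 h, 66.2 and 68.3 at day 1, and 111 and 118 at day 4 (−1.97 ± 0.12, adjusted p = 1.22e-13, edgeR). Fzd5, a Wnt receptor and the only 1 of the 13 signalling members called lower at day 4 (11.1% of all names were), had 104 and 98.7 at 0 h, 40.2 and 41.1 at 8 h, and 22.5 and 15.4 at day 4 (−2.59 ± 0.23, adjusted p = 3.49e-10, edgeR).

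**Figure D5:**
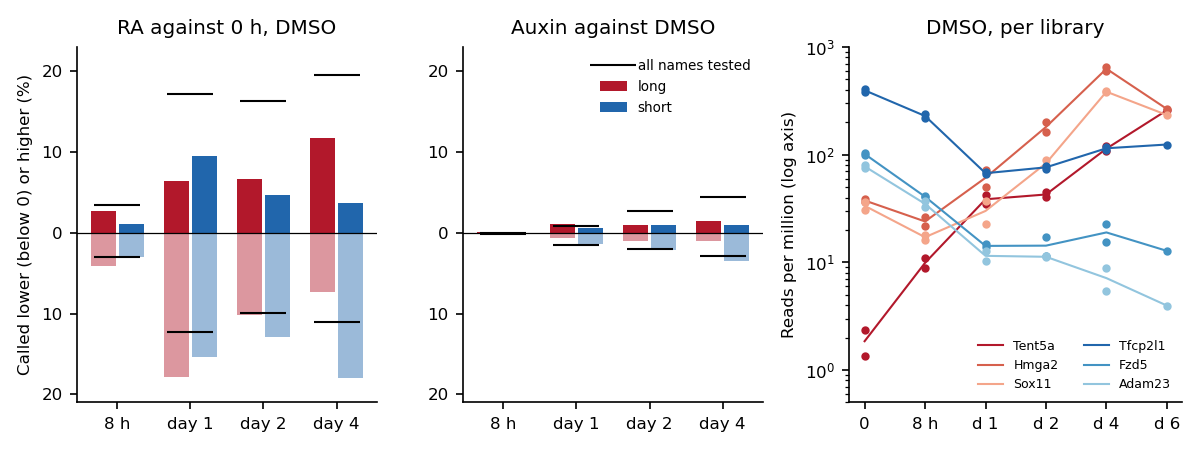
Percent of the tested long and short intervals called higher (above 0) or lower (below 0) for RA against 0 h in DMSO (left) and for auxin against DMSO (middle), with lines for all names tested, and CPM of 6 named long intervals in each DMSO library (right, log axis, lines join the means). At day 4, 11.7% of long and 3.71% of short intervals are higher and 7.37% and 17.9% lower, and Tent5a, Hmga2 and Sox11 end above their 0 h level while Tfcp2l1, Fzd5 and Adam23 end below it.

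Auxin against DMSO at the same time of RA, which asks what DPY30 loss changes during differentiation, gave few calls. At 8 h 1 member was lower and 1 higher (0.149% and 0.0175% of all names), and 0 by DESeq2. At day 1 4 were lower and 7 higher (1.54% and 0.894%), at day 2 7 and 6 (2.04% and 2.71%), and at day 4 7 and 10 (2.88% and 4.42%). The median log2 differences at day 4 were −0.02 for long, −0.17 for short and −0.03 for all, and 34 short intervals were lower and 9 higher. The ES cell genes summed to less with auxin than with DMSO at 8 h (2680–2771 against 3136–3319 CPM), day 1 (2554–2555 against 2854–3041) and day 4 (1298–1352 against 1681–1711), overlapped at day 2 (1668–1733 against 1685–1705), and summed to more at day 6 (978–1063 against 724). The 19 genes of other cell types summed to 168–182 with auxin and 146–156 with DMSO at 8 h, 185–212 and 117–150 at day 1, 651–713 and 724–736 at day 2, 1359–1450 and about 1400 at day 4, and 2314–2363 and 3684 at day 6, with 0 to 8 of them at 0 in a library. Their part in the differences was not tested. Without normalisation factors, with the median of all names at 0.18, 2 members were lower and 22 higher at day 4 (1.82% and 6.75% of all names). The called share of members at 8 h (0.301%) was 0.150% without DMSO replicate 1 or auxin replicate 2 and 0% without DMSO replicate 2 or auxin replicate 1. At day 1 it was 1.05% without DMSO replicate 1 and 0.902% without auxin replicate 1. No share of all names is given for these omissions.

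Hmga2 was lower with auxin than with DMSO at day 1 and day 2 of RA. At day 1 it had 50.5 and 71.6 CPM with DMSO and 31.4 and 24.5 with auxin (−1.10 ± 0.23, adjusted p = 0.00282, edgeR), and at day 2 161 and 201 against 109 and 81.9 (−1.03 ± 0.16, adjusted p = 6.62e-05, edgeR). The groups did not overlap on either day. At day 4 it had 598 and 657 against 424 and 393 (−0.83), which is under the fold limit. Each of the calls was lost without replicate 2 of DMSO or of auxin, and that of day 2 without normalisation factors.

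At day 4 the largest rises with auxin were those of Il6ra, an interleukin-6 receptor subunit, Olfr889 and Adam23, and the largest falls those of Grik3, a kainate receptor, Myo6 and Arid1b, a chromatin remodeller subunit. Adam23 had 5.41 and 8.86 CPM with DMSO and 21.1 and 26.7 with auxin (1.53 ± 0.31, adjusted p = 0.000643, edgeR), against 80.6 and 75.1 before RA. Myo6 had 96.4 and 112 with DMSO and 45.3 and 48.0 with auxin (−1.37 ± 0.19, adjusted p = 6.15e-06, edgeR), and at day 6 180 in the 1 DMSO sample and 39.9 and 60.1 with auxin, where no test was run. Grik3 had 24.8 and 25.6 against 7.45 and 7.12 (−1.99 ± 0.32, adjusted p = 4.98e-05, edgeR). In these 3 genes the groups were clearly apart. Il6ra had 1.35 and 3.26 against 16.8 and 8.30 (2.2 ± 0.49, adjusted p = 0.00191, edgeR), a call lost without replicate 1 of either group. Arid1b had 46.4 and 51.8 against 28.5 and 21.9 (−1.17 ± 0.25, adjusted p = 0.00111, edgeR), lost without auxin replicate 2 and without normalisation factors. Olfr889 had 64.0 and 54.1 against 240 and 257 CPM, and 100% of its reads were multimapped, so their origin is uncertain.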

How the data were processed

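SLAM-seq (36 libraries) and Quant-seq (22 libraries) measured poly(A) RNA at 3′ ends. Per the file headers, the authors used SlamDunk 0.3.4 to count reads and reads with a T-to-C change (T>C) over GENCODE vM14 3′ UTR intervals (GRCm38), so the deposited values are raw counts, not corrected for duplicates. The Quant-seq tables carry the same header, while the submitters' processing notes also name HISAT2 2.2.1, featureCounts, cutadapt, Trim Galore and bcl2fastq, and which tool made which Quant-seq value was not settled. A requirement of 2 conversions per read could not be applied from these counts. Columns for conversions, covered T positions and multimapped reads were used as deposited.

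Counts were summed per name and fitted with edgeR 4.0.16 (R 4.3.3), quasi-likelihood test, 1 fit per SLAM-seq line and readout and 1 for Quant-seq. T>C reads used total reads and TMM factors of total reads as library sizes. Names needed a mean of 10 reads in at least 1 group. A call needed both a log2 fold change beyond 1 and a p below 0.05 after Benjamini-Hochberg adjustment. Log2 changes are given ± SE. Counting error alone limits shares of intervals near 100 reads. Scripts were tested on simulated data. Alternatives were DESeq2 1.42.0, no TMM factors, TMM factors from T>C reads, other filters, a replicate block, each library left out, and stricter rules for members. Replicate numbers did not pair the libraries: in no fit did every pair of same-numbered libraries deviate together. The identical DMSO day 6 libraries were used as 1.

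The members and gene lists were chosen with earlier results of these data known. Named intervals were the 5 longest, the 5 with most reads, the 5 highest and 5 lowest mean T>C shares (at least 300 reads in each line), the 5 with most T>C reads among those lower at 8 h in both lines without overlap, the 3 largest rises after loss, the 5 largest rises and falls at day 4 of RA, the 3 largest rises and falls with auxin at day 4, 3 short intervals each by share and by reads, those nearest each limit, and called members of the gene lists. Other names (Nr6a1, Hic2, Dennd5b and the remaining intervals lower in both lines) were added after their values were seen. Values of 3 intervals that this rule also picked are not reported here.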

Additional observations from a re-analysis of the deposited data

Results flagged for a closer look

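In 2 of 195 comparisons of a named member between DPY30mAID and RBBP5FKBP, every library of one line moved up from 0 h and every library of the other moved down, and the differences between the lines were not tested. The comparisons cover the members named by rule and leave out Dennd5b, which was called in opposite directions at 24 h (log2 1.22 in DPY30mAID and −1.48 in RBBP5FKBP). Tmem245, one of the longest members, with 54.3% of reads multimapped, had 20.5, 20.7 and 27.2 T>C CPM at 0 h and 45.3, 46.6 and 37.5 at 24 h in DPY30mAID, a log2 ratio of the means of 0.92. In RBBP5FKBP it had 22.2, 19.3 and 20.3 and then 5.76, 6.52 and 14.5, a log2 ratio of −1.21. Only the fall in RBBP5FKBP was called (adjusted p = 0.0271, edgeR, against 0.194 in DPY30mAID).

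Spry4, a feedback inhibitor of FGF signalling, had 77.6, 57.7 and 76.4 T>C CPM at 0 h and 131, 110.0 and 114 at 24 h in DPY30mAID, a log2 ratio of 0.74. In RBBP5FKBP it had 18.0, 25.9 and 19.2, then 16.4, 12.1 and 10.6, a log2 ratio of −0.69. Neither change was called (adjusted p = 0.181 and 0.145, edgeR).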

How the results depend on the processing

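The ratio of long to short median T>C shares stayed above 1 in each line under every alternative. Counted as conversions per T position it was 1.96 in DPY30mAID, 2.12 in RBBP5FKBP and 2.23 in Kdm5dKO, with at most 10% multimapped reads 1.99 in DPY30mAID and 2.14 in RBBP5FKBP, and from 5000 bases 2.15 in RBBP5FKBP. Leaving out 1 library gave 2.04–2.14, 2.18–2.31 and 2.36–2.52.

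Percentages from here on are shares of tested members called on T>C reads. No share of all names is given here for the filter settings or for single libraries left out. Those values describe the members' count alone. In DPY30mAID the 15.5% at 8 h became 9.94% without TMM factors and 2.84% with factors from T>C reads, and the 3.15% at 24 h became 5.36% by DESeq2 and 7.89% with factors from T>C reads. In RBBP5FKBP the 0% at 2 h became 1.20% by DESeq2 and 0.248% with the filter set on the mean over all libraries. The 4.80% at 8 h became 2.71% without a filter and 0.200% with factors from T>C reads, and the 26.2% at 24 h became 15.6% and 0.200%. In Kdm5dKO factors from T>C reads gave 3.59% in place of 27.2% at 24 h and 6.84% in place of 65.8% at 48 h. Over all names tested in DPY30mAID the shares were 14.6% at 8 h and 3.56% at 24 h, 9.78% at 8 h without TMM factors, 6.0% at 24 h by DESeq2, and 2.41% and 9.09% with factors from T>C reads. In RBBP5FKBP they were 1.13% at 2 h by DESeq2 and 0.903% and 1.47% at 8 and 24 h with those factors, and in Kdm5dKO 2.73% and 3.74% at 24 and 48 h. By construction these factors remove a change that all names share. With them, 6 named falls in Kdm5dKO at 48 h turned to log2 changes of 0.089 for Tmem245, 0.054 for Ncl, 0.013 for Gse1, 0.058 for Rps15a, 0.17 for Dap3, and 0.077 for Cpsf2. Leaving out 1 library gave 0–0%, 7.38–34.1% and 0.316–8.95% at 2, 8 and 24 h in DPY30mAID, 0–0%, 1.78–5.35% and 18.3–25.5% in RBBP5FKBP, and 16.3–30.9% and 48.2–65.6% at 24 and 48 h in Kdm5dKO.

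For total reads and Quant-seq reads, with at least 300 reads as the limit the 3.16% at 8 h of DPY30 loss became 1.79% and the 3.77% at 24 h of RBBP5 loss 2.31%. For auxin against DMSO the 0.301% at 8 h became 0% by DESeq2 or with at least 300 reads and 1.09% from 5000 bases. The 1.95% at day 2 became 1.20%, 1.28% and 1.09%, and the 2.56% at day 4 became 1.28% with at least 300 reads. The cause was not tested. Leaving out 1 library gave 2.71–4.06% and 10.7–13.2% for total reads at 8 and 24 h in DPY30mAID and 2.26–4.82% and 2.56–3.92% in RBBP5FKBP. It gave 6.02–7.22%, 24.2–25.4%, 16.8–17.9% and 17.6–19.8% for RA at 8 h and days 1, 2 and 4, and 0–0.301%, 0.902–1.80%, 1.65–2.26% and 1.80–3.31% for auxin against DMSO.

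A replicate block, on numbers that did not pair the libraries, gave 16.1% at 8 h in DPY30mAID and 24.4% at 24 h in RBBP5FKBP and changed 5 of 234 named calls. Of those, 222 were kept by DESeq2, 220 without TMM factors and 223 without a filter, while factors from T>C reads kept 15 T>C calls, lost 73 and turned 6. In all, 117 of the 234 were lost under some alternative, and 90 of them without leaving out a library. Leaving out members that hold an exon of another gene on the same strand, an alternative chosen after seeing the data, moved no count by over 1.5 times. The depth behind a member near 100 reads gives few T>C reads per library, and 31, 165 and 80 members in the 3 lines could not be tested.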
